A study of Homo sapiens with 18 samples.

Results

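Interferon-stimulated genes (ISGs) are the genes that cells switch on after sensing a virus or receiving an interferon. A set of 52 of them was taken by gene symbol from the 58735 genes counted, and all 52 symbols were found. They were divided by role into 11 sensors of foreign nucleic acid, 10 signalling factors and 31 effectors. The study used A549 and H358, established human lines of lung adenocarcinoma. RAD21 is the subunit that closes the cohesin ring, which pairs sister chromatids and extrudes loops of chromatin. Both lines were depleted of RAD21 by a lentiviral shRNA (shRAD21), with a control vector (shNC) for comparison, and RAD21 was overexpressed in A549 (RAD21OE), beside an empty vector (EV). The 6 groups were A549 shRAD21, A549 shNC, H358 shRAD21, H358 shNC, A549 RAD21OE and A549 EV, each with 3 libraries. According to the labels none was given an interferon, and no virus is named beyond the lentiviral vector of the shRNA.

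Interferons of type I and type III bind receptors that signal through the kinases JAK1 and TYK2. A complex of STAT2, its STAT partner and IRF9 then enters the nucleus and binds the interferon-stimulated response element (ISRE) in the promoters of ISGs. Epithelial cells keep a basal level of many of these genes without added interferon. Cytosolic sensors such as RIG-I (DDX58) and MDA5 (IFIH1) can start the same programme by inducing interferons.

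The knockdown libraries held between 15155077 and 19277568 counts and the overexpression libraries between 13024640 and 14276335. RAD21 followed the labels, with log2 fold changes of -1.08 in A549 shRAD21, -0.51 in H358 shRAD21 and 2.85 in RAD21OE, and the groups did not overlap in any of the 3 comparisons. The number of different hairpins and of clones is not stated. The labels do not say whether replicates were separate cultures, so p-values measure the spread between libraries, which may be technical. Replicate 3 of A549 shRAD21 stood 0.277 and 0.268 from its replicates (median absolute log2 difference over genes), and replicate 3 of RAD21OE stood 0.256 and 0.222 from its own, against at most 0.135 for any other pair. The counts of calls are also given without these libraries. In every group all 6 epithelial markers had a mean of at least 1 CPM, and 5 leukocyte markers summed to at most 2.54 CPM (counts scaled to the size of the library) in any library. In A549 shRAD21 the epithelial markers summed to 12549 to 15795 CPM, against 9567 to 10075 CPM in shNC. In RAD21OE they summed to 12840 to 16599 CPM, against 11116 to 11405 CPM in EV. The 4 fibroblast markers, of which 1 reached a mean of 1 CPM in each A549 group, summed to 15.6 to 23.1 CPM in RAD21OE and 23.7 to 29.3 CPM in EV, and the 3 endothelial markers to less than 1 CPM in both. The part of these markers in the results was not tested. RNA of whole cultures cannot tell fewer expressing cells from less RNA per cell.

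RefSeq promoter windows (build GRCh38.p14, from 250 bases before to 50 after the start of transcription) were found for 43 of the 52 members, including DDX58 under its newer symbol RIGI. No entry was used for DHX58, OAS2, OASL, IRF7, USP18, MX2, IFIT2, IFITM2 and TRIM22. The ISRE core, searched on both strands as GAAA, any 2 bases and GAAA again, occurred in 27 of the 43 windows (62.8%), against 3.57% of all 35114 windows. The gamma-activated site, searched as TTCNNNGAA on both strands, occurred in 11 of the 43 (25.6%), against 7.66% of all windows. The core was found in 5 of 8 sensor, 3 of 8 signalling and 19 of 27 effector windows. The windows below are those of the 3 members with the smallest adjusted p among those higher in H358 shRAD21 that have a usable entry (IFI27, MX1 and OAS3), of the member that fell in A549 shRAD21 (ISG20), and of the neighbours DTX3L and PARP9. They lie at chr14:94110486-94110785 (IFI27), chr21:41420308-41420607 (MX1), chr12:112938224-112938523 (OAS3), chr15:88638766-88639065 (ISG20) and chr3:122564088-122564387 (DTX3L) on the plus strand, and at chr3:122564735-122565034 (PARP9) on the minus strand, and each is written along its gene. Capitals mark the core.
IFI27: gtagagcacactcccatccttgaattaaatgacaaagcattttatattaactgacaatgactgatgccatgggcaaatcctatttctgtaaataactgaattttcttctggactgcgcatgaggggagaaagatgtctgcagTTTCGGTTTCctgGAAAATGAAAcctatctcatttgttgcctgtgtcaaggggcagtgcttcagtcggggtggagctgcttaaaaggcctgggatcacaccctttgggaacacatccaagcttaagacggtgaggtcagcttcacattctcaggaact
MX1: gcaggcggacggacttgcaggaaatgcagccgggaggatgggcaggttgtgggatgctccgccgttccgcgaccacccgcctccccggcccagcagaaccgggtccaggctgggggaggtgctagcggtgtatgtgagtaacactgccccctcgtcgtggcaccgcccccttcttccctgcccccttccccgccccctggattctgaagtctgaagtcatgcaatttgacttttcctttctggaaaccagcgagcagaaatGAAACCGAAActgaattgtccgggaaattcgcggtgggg
OAS3: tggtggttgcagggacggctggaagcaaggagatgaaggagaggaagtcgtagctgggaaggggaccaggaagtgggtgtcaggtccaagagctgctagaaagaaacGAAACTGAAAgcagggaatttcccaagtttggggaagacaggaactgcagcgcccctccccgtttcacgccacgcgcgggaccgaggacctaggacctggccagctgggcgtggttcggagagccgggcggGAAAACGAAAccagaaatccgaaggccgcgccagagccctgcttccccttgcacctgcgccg
ISG20: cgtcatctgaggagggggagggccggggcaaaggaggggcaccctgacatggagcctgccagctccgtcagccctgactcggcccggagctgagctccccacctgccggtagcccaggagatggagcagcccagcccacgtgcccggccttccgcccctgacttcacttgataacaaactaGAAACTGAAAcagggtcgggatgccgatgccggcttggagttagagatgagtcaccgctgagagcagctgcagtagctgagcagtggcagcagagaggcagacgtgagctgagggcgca
DTX3L: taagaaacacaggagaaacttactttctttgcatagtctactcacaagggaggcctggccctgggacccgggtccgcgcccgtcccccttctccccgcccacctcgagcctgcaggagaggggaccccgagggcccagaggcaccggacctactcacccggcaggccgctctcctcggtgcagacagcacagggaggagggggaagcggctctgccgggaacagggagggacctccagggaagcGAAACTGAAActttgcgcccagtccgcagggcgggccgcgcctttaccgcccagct
PARP9: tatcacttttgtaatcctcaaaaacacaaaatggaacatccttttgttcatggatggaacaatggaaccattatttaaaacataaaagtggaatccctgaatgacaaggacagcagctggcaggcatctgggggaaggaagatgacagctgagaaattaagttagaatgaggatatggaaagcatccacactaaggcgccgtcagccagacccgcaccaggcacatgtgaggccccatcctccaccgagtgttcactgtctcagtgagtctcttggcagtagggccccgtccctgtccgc
IFI27 and OAS3 hold 2 copies of the core each, MX1, ISG20 and DTX3L hold 1, and the window of PARP9 holds none. The matches begin at bases -108 and -95 of IFI27, -143 and -12 of OAS3, 12 of MX1, -69 of ISG20 and -6 of DTX3L, counted from the start of transcription. DTX3L and PARP9 lie on opposite strands with RefSeq starts 446 bases apart. A match is a description of these letters and not a measured site of binding.

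**Figure D1:**
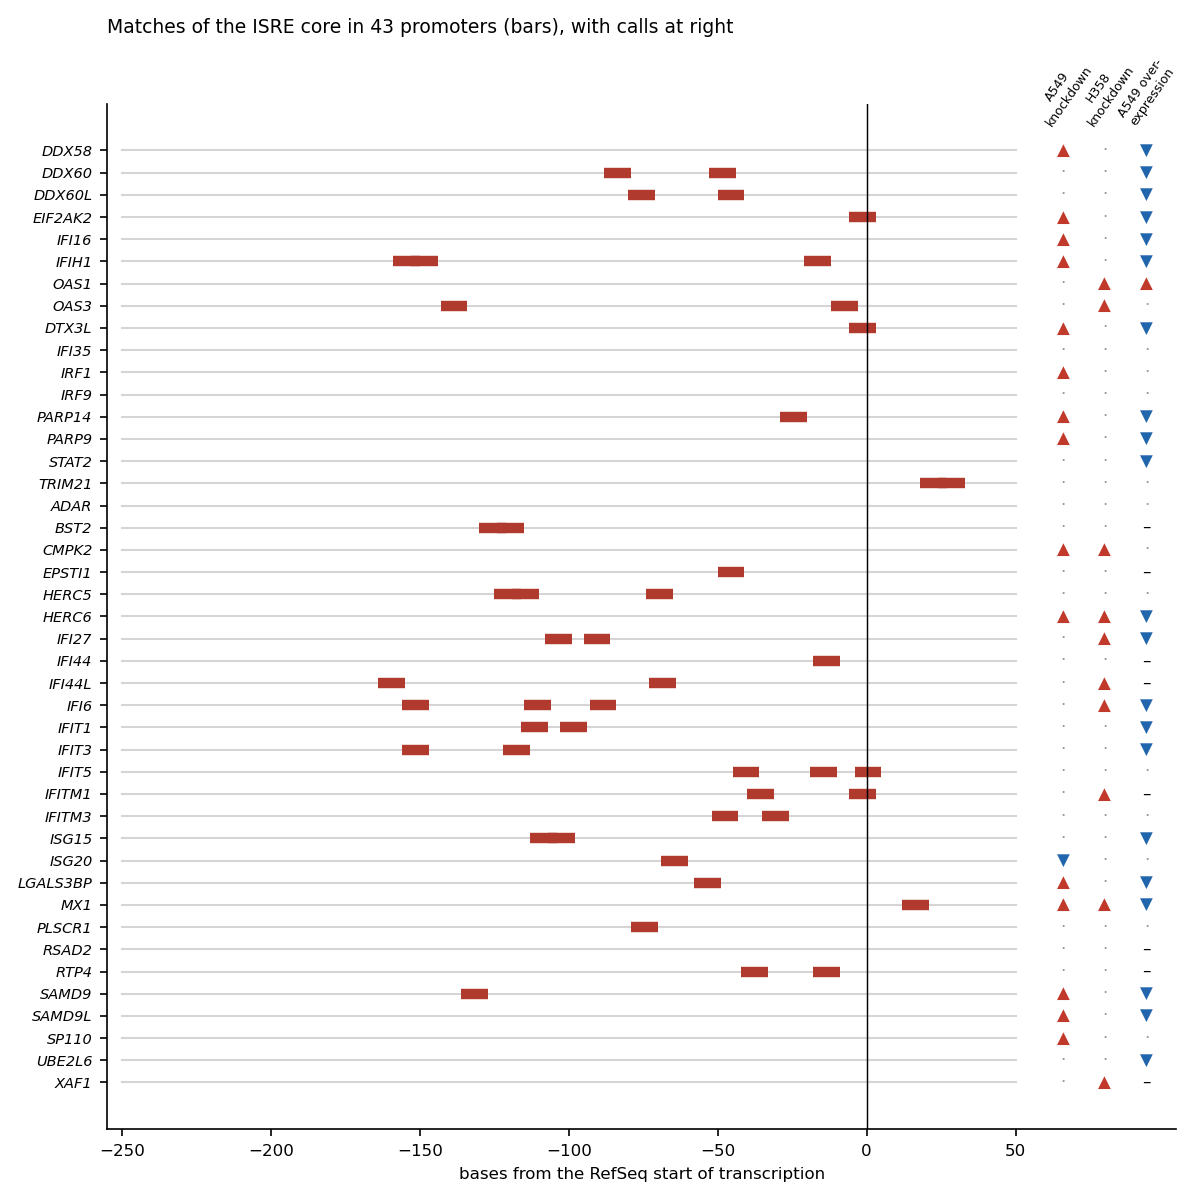
Each line is the promoter window of 1 of the 43 members with a RefSeq entry, in bases from the start of transcription, and each bar is a match of the ISRE core. Arrows at right give the call in each comparison (up for higher, down for lower, a dot for not called, a dash for not tested), and 27 of the 43 windows hold at least 1 match.

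Knockdown in A549 asked how these genes change when cohesin is depleted. In shRAD21 cells 17 of the 52 members were higher and 1 was lower, at an adjusted p under 0.05 (edgeR's quasi-likelihood test, Benjamini-Hochberg over 18939 genes). The higher ones make up 32.7% of the members, while 14.4% of all genes tested were higher and 10.9% were lower. The median log2 fold change was 0.27 over the 52 members, and also 0.27 without the 3 that had at most 3 counts in both groups (MX2, RTP4 and XAF1), against 0.0045 over all genes tested. By role, 4 of 11 sensors, 5 of 10 signalling factors and 8 of 31 effectors rose, and the effector ISG20 fell. Of the 38 members above the level of the count filter (0.618 CPM) in both A549 groups 15 were higher and 1 was lower. Over all 14091 such genes 17.3% were higher and 12.9% were lower. The 15 members were 4 of 8 sensors, 5 of 10 signalling factors and 6 of 20 effectors. MX1 and CMPK2 were above the level in shRAD21 alone. Another 12, among them DHX58, OAS2 and OASL, did not reach it in all libraries of either A549 group, and 0 were called. Without shRAD21 replicate 3 the members higher numbered 23, or 44.2%, against 23.2% of all genes tested, with a median of 0.31. By role these were 6 sensors, 4 signalling factors and 13 effectors. Mitochondrial genes took 10.3, 9.75 and 7.45% of the counts in shRAD21 replicates 1, 2 and 3, against 8.59 to 8.94% in shNC, and their part was not tested.

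Among the sensors, IFIH1 encodes MDA5, a helicase that binds long double-stranded RNA. Its level was 6.12, 6.54 and 4.09 CPM in shRAD21 libraries, against 1.65, 1.87 and 1.42 CPM in shNC libraries. The groups did not overlap, and replicate 3 was the lowest of the shRAD21 libraries (log2 fold change 1.76, SE 0.20, adjusted p = 2.59e-06). IFI16, a sensor of DNA in the nucleus and cytosol, had 2.26, 1.52 and 2.25 CPM in shRAD21 libraries, against 0.976, 0.736 and 1.2 CPM in shNC libraries. All shRAD21 values lay above the shNC values, at low levels (log2 fold change 1.05, SE 0.26, adjusted p = 0.00588). DDX58, which encodes RIG-I, a sensor of RNA ends, had 9.42, 10.9 and 6.54 CPM in shRAD21 libraries, against 7.26, 5.96 and 5.24 CPM in shNC libraries. Its groups overlapped through shRAD21 replicate 3, and its call (log2 fold change 0.54, SE 0.17, adjusted p = 0.028) was lost in 6 of 15 alternatives, where the adjusted p reached 0.162. EIF2AK2, the kinase PKR that halts translation on double-stranded RNA, had 192, 204 and 160.0 CPM in shRAD21 libraries, against 158, 145 and 159.6 CPM in shNC libraries. The groups nearly met at shRAD21 replicate 3, and the call (log2 fold change 0.27, SE 0.08, adjusted p = 0.0201) was lost in 7 of 15 alternatives, where the adjusted p reached 0.374. With a correction for GC content and length the log2 fold change of EIF2AK2 was 0.06. The remaining sensors were not called, among them OAS1, OAS2 and OAS3, synthetases of the short oligoadenylates that activate RNase L, with log2 fold changes of 0.05, -0.03 and 0.09. The value of OAS2 is uncertain, since it had 20 counts in each A549 group, 16 of the shNC counts in replicate 1.

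DTX3L, PARP9 and PARP14 lie within 203 kb on chromosome 3 (chr3:122527924-122730840 in hg38), and all 3 were higher in A549 shRAD21. DTX3L, a ubiquitin ligase that pairs with PARP9, had 48.7, 43 and 40.6 CPM in shRAD21 libraries, against 24, 24.7 and 22.6 CPM in shNC libraries. PARP9, an ADP-ribosyltransferase family member of that complex, had 26.1, 26.8 and 22 CPM in shRAD21 libraries, against 12.3, 12.6 and 10.3 CPM in shNC libraries. Both groups of both genes were tight, and the shRAD21 values were all well above the shNC values. The log2 fold change was 0.89 for DTX3L (SE 0.08, adjusted p = 1.82e-07) and 1.09 for PARP9 (SE 0.11, adjusted p = 8.36e-07). PARP14, a mono-ADP-ribosyltransferase, had 80.4, 91.1 and 66.7 CPM in shRAD21 libraries, against 49.1, 47.7 and 51 CPM in shNC libraries, again without overlap (log2 fold change 0.69, SE 0.09, adjusted p = 1.49e-05). IRF1, a transcription factor, and USP18, which removes ISG15 from proteins and restrains interferon receptors, were also higher, at 0.40 and 0.43. The call of USP18 was lost in 7 and that of IRF1 in 1 of 15 alternatives. STAT2 and IRF9, parts of the ISRE-binding complex, were not called, with log2 fold changes of 0.14 and -0.09. The counts of IRF9 are less certain, since 48.44% of its exon sequence overlaps another gene on the same strand.

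Among the effectors, MX1, a GTPase that blocks incoming viral nucleoproteins, had 1.71, 1.08 and 1.5 CPM in shRAD21 libraries, against 0.366, 0.401 and 0.496 CPM in shNC libraries. Every shRAD21 library was above every shNC library, on 67 counts against 19 counts in all (log2 fold change 1.76, SE 0.29, adjusted p = 0.00019). SAMD9, a translation inhibitor that restricts poxviruses, had 17.7, 16.8 and 11.9 CPM in shRAD21 libraries, against 8.36, 6.82 and 7.44 CPM in shNC libraries. Its neighbour on chromosome 7, SAMD9L, had 6.12, 6.98 and 5.38 CPM in shRAD21 libraries, against 3.6, 1.67 and 2.41 CPM in shNC libraries. Neither gene showed overlap between the groups (1.04, SE 0.13 for SAMD9 and 1.25, SE 0.20 for SAMD9L, adjusted p = 1.22e-05 and 0.000147). HERC6, whose mouse counterpart attaches ISG15 to proteins, had 15.5, 13.2 and 16 CPM in shRAD21 libraries, against 8.91, 8.9 and 9.0 CPM in shNC libraries (log2 fold change 0.74, SE 0.11, adjusted p = 5.04e-05). LGALS3BP, a secreted glycoprotein that binds galectins, had 120.1, 130.0 and 141 CPM in shRAD21 libraries, against 80.5, 78.7 and 84.3 CPM in shNC libraries. All shRAD21 values were above the highest shNC value (log2 fold change 0.68, SE 0.07, adjusted p = 3.69e-07).

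CMPK2, a mitochondrial nucleotide kinase, SP110, a nuclear body protein, and IFITM2, which blocks fusion of virus with endosomes, also rose, at 2.39, 0.78 and 0.77 on the log2 scale. CMPK2 averaged 1.31 ± 0.186 CPM in shRAD21 and 0.247 ± 0.156 CPM in shNC cells (SD, n = 3 each), low levels in both groups. Counting is less certain for IFITM2, which shares 22.75% of its exon sequence with IFITM1 on the same strand, and for SP110, of which 20.86% is overlapped on the other strand. The 1 member that fell, ISG20, encodes a nuclease that degrades single-stranded RNA. It had 6.36, 8.64 and 8.66 CPM in shRAD21 libraries, against 12.1, 13.2 and 13.9 CPM in shNC libraries, and all shRAD21 values were below the shNC values (log2 fold change -0.73, SE 0.13, adjusted p = 0.000536). The IFIT genes, whose products bind foreign RNA ends, were not called, with log2 fold changes between 0.09 (IFIT5) and 0.46 (IFIT3). ISG15, the ubiquitin-like protein for which this class is best known, had a log2 fold change of -0.12 (SE 0.19).

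**Figure D2:**
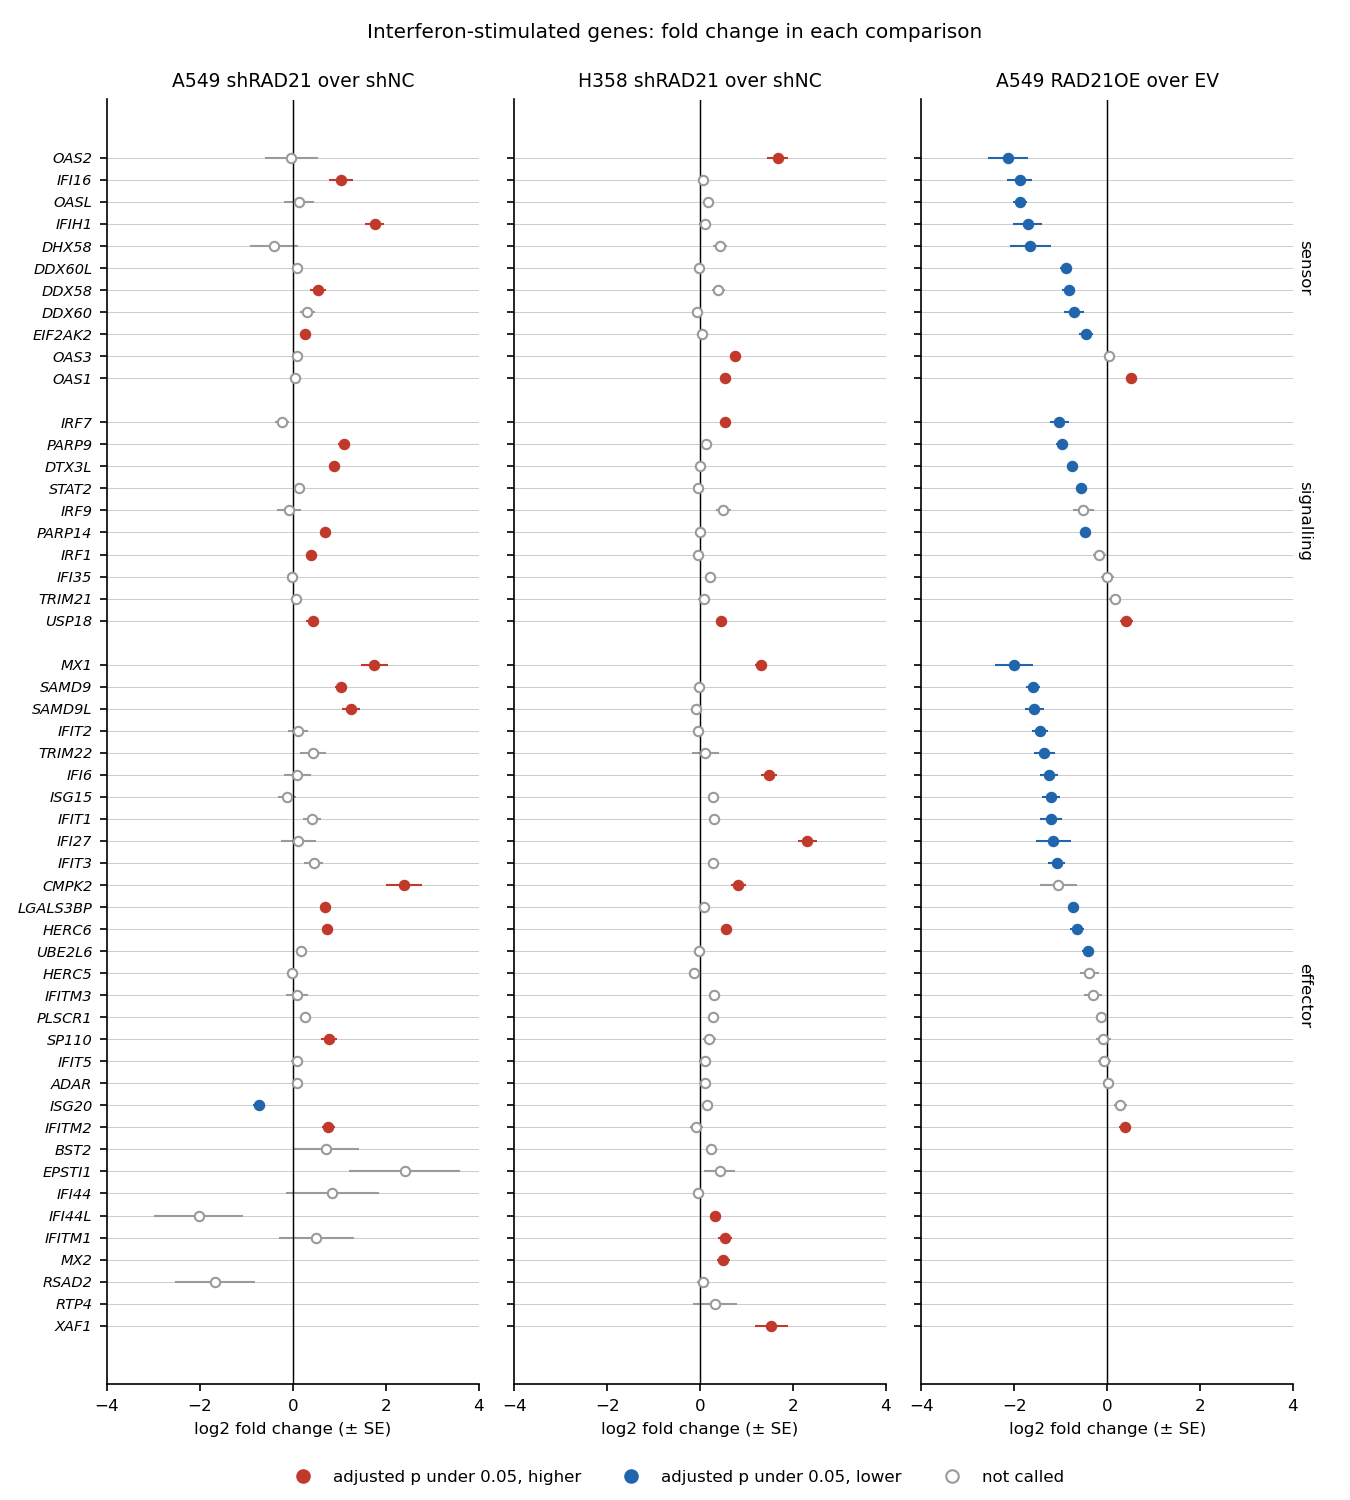
Log2 fold change with its SE (edgeR) of each member in the 3 comparisons, members ordered by role and then by the change with RAD21OE. Filled points passed an adjusted p of 0.05, and no point is drawn where a gene was not tested or had at most 3 counts in both groups. In A549 shRAD21 17 members lie to the right as called and 1 to the left, in H358 14 and 0, and in RAD21OE 3 and 27.

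In H358, 14 of the 52 members were higher with shRAD21 and 0 were lower (edgeR). DESeq2 gave 14 higher and 0 lower and limma-voom 19 higher and 0 lower. Over all 18939 genes DESeq2 gave 943 higher and 1071 lower, and limma-voom 812 higher and 1012 lower. At an unadjusted p under 0.05 edgeR gave 24 higher and 0 lower, a count for which no share over all genes was computed. The 14 called by edgeR at an adjusted p under 0.05 are 26.9% of the members, against 3.78% of all genes tested higher and 4.62% lower. The median log2 fold change of the 52 was 0.21, against 0 over all genes. In 29 of the 52 every shRAD21 library was above every shNC library, which held for 18.0% of all genes tested, and in 2 every shRAD21 library was below, which held for 18.1%. By role, 3 of 11 sensors, 2 of 10 signalling factors and 9 of 31 effectors rose. XAF1, an effector, was above the filter level in shRAD21 alone. Of the 50 members above it in both groups 13 were higher and 0 were lower (edgeR). Over all 15597 such genes 4.16% were higher and 5.43% were lower. The number higher among the 52 was 23 with a correction for GC content and length, and 26 in a fit of the 6 H358 libraries alone. It was 9 to 10 with any 1 library left out (9 without shRAD21 replicate 1, shNC replicate 2 or shNC replicate 3). Under these settings 8.72%, 12.7% and 1.78% to 1.98% of all genes tested were higher.

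The sensors that rose in H358 were the 3 oligoadenylate synthetases, which lie side by side within 105 kb on chromosome 12. OAS1 had 37.7, 37.5 and 36.8 CPM in shRAD21 libraries, against 26.5, 26.2 and 24.2 CPM in shNC libraries. OAS2 had 13.5, 14 and 14.1 CPM in shRAD21 libraries, against 4.77, 4.17 and 4.13 CPM in shNC libraries. OAS3 had 171, 160.0 and 177 CPM in shRAD21 libraries, against 99.9, 102 and 98.7 CPM in shNC libraries. In none of these genes did the groups overlap, and the lowest shRAD21 library stood well above the highest shNC library. The log2 fold changes were 0.54 for OAS1 (SE 0.08), 1.67 for OAS2 (SE 0.22) and 0.76 for OAS3 (SE 0.08), with adjusted p of 0.000285, 0.000127 and 1.41e-05. The RNA helicases were not called, with IFIH1 at 0.10, DDX58 at 0.40 and DHX58, the regulatory helicase LGP2, at 0.43. Of these, DDX58 and DHX58 had no overlap between the groups (adjusted p = 0.093 and 0.0832).

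IRF7, the transcription factor that amplifies type I interferon, was a signalling factor that rose in H358. It had 28.9, 25 and 26.7 CPM in shRAD21 libraries, against 18, 18.9 and 18.6 CPM in shNC libraries (log2 fold change 0.54, SE 0.10, adjusted p = 0.00242). USP18 averaged 21.1 ± 2.62 CPM in shRAD21 and 15.3 ± 1.04 CPM in shNC cells (SD, n = 3 each), with a log2 fold change of 0.46, and its call was lost in 5 of 15 alternatives. DTX3L had 99, 98.4 and 97.8 CPM in shRAD21 libraries, against 98, 101 and 97.9 CPM in shNC libraries. PARP9 had 54.6, 58.1 and 56.2 CPM in shRAD21 libraries, against 54.7, 45.6 and 54.1 CPM in shNC libraries. In both genes the H358 groups overlapped, with log2 fold changes of -0.01 (SE 0.07) for DTX3L and 0.13 (SE 0.10) for PARP9.

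IFI27, a mitochondrial protein among the genes most inducible by type I interferon, showed the largest fold change of the members called in H358, with 35.6, 27.6 and 18.7 CPM in shRAD21 libraries, against 5.44, 5.7 and 5.27 CPM in shNC libraries. The 3 shRAD21 libraries spread widely and the shNC libraries were close together, with no overlap (log2 fold change 2.32, SE 0.20, adjusted p = 1.97e-06). IFI6, an inhibitor of flavivirus replication at the endoplasmic reticulum, had 66.8, 56.1 and 55 CPM in shRAD21 libraries, against 22.5, 20.6 and 20.2 CPM in shNC libraries (log2 fold change 1.49, SE 0.17, adjusted p = 4.21e-05). MX1 had 27.6, 24.7 and 27 CPM in shRAD21 libraries, against 10.3, 10.5 and 11.3 CPM in shNC libraries. HERC6 had 41.6, 38.4 and 44 CPM in shRAD21 libraries, against 27.5, 28.9 and 27.3 CPM in shNC libraries. For these 3 effectors every shRAD21 library exceeded every shNC library, and the log2 fold change was 1.30 for MX1 (SE 0.11, adjusted p = 2.73e-06) and 0.57 for HERC6 (SE 0.09, adjusted p = 0.000638). CMPK2, at 0.83, was also higher. The calls of MX2 (0.50), IFITM1 (0.54), IFI44L (0.32) and XAF1 (1.54) were each lost in 5 to 7 alternatives. Counting is less certain for IFITM1, which shares 32.5% of its exon sequence with IFITM2 on the same strand. XAF1, a proapoptotic protein, had 94 counts in shRAD21 and 34 counts in shNC over 3 libraries, and 38.32% of its exon sequence is overlapped on the other strand. ISG15 averaged 166 ± 7.22 CPM in shRAD21 and 136 ± 3.56 CPM in shNC cells, without overlap but not called (log2 fold change 0.29, adjusted p = 0.0702).

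**Figure D3:**
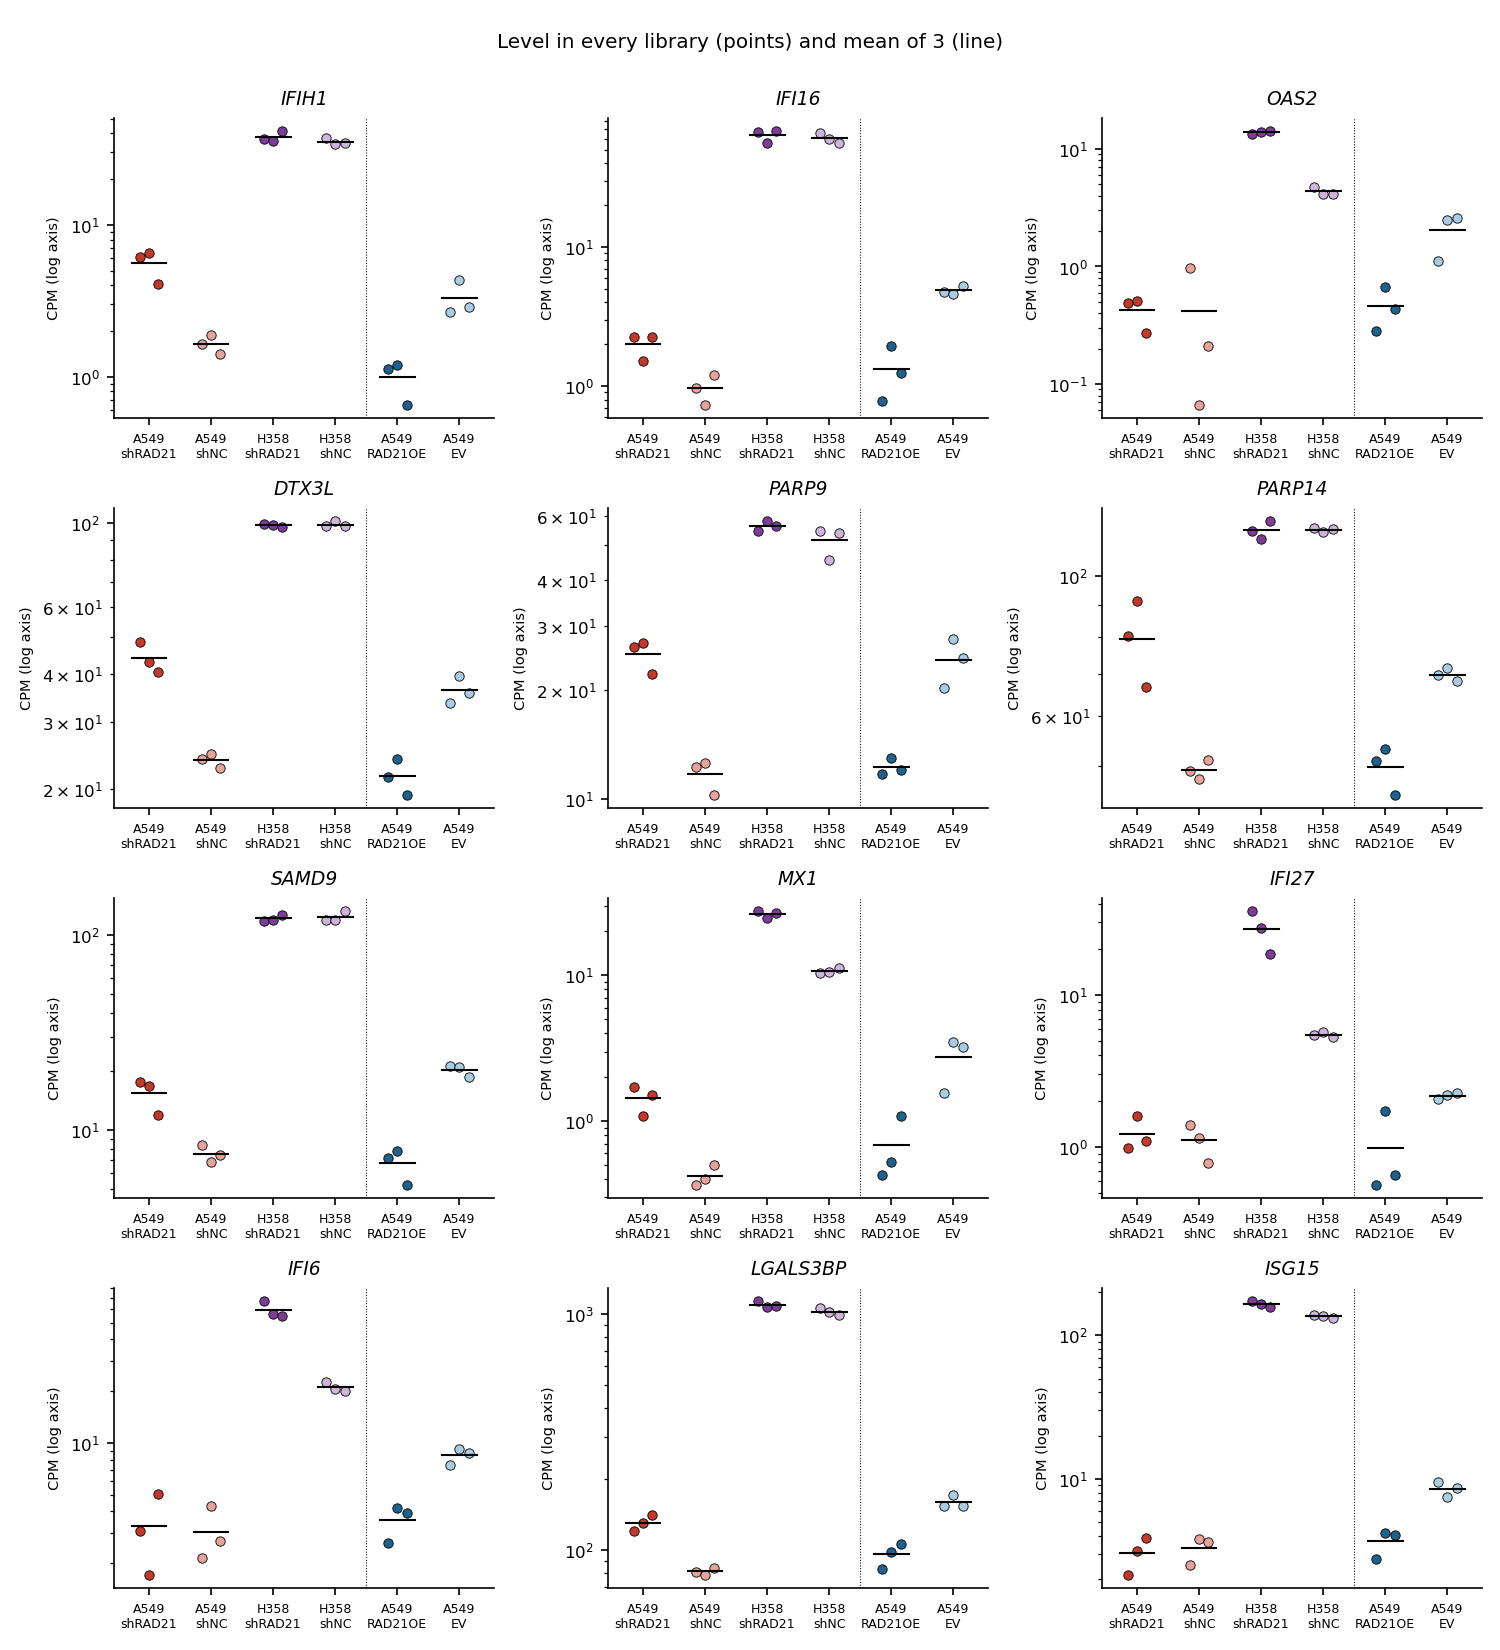
CPM of 12 members in each library on a log axis, with a line at the mean of 3, for A549 shRAD21 and shNC, H358 shRAD21 and shNC, and A549 RAD21OE and EV (a separate table, right of the dotted line). IFIH1, DTX3L, PARP9, PARP14 and SAMD9 separate the A549 groups in both experiments and overlap in H358, whereas OAS2, IFI27 and IFI6 separate the H358 groups and overlap in the A549 knockdown.

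The knockdown was then compared between the lines with a test of the difference itself (H358 minus A549). Of the 52 members, 17 differed, 6 with the larger log2 fold change in H358 and 11 with the larger in A549. These are 11.5% and 21.2% of the members, against 7.61% and 9.94% of all genes tested. Without A549 shRAD21 replicate 3 the counts were 8 and 14, or 15.4% and 26.9%, against 17.9% and 19.6% of all genes tested. RAD21 itself fell less in H358 than in A549 (difference 0.57, SE 0.12, adjusted p = 0.00228).

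Genes with the smaller change in H358 included DTX3L (difference -0.90, SE 0.11, adjusted p = 1.46e-05), PARP9 (-0.96, SE 0.15) and PARP14 (-0.69, SE 0.12). IFIH1 differed by -1.66 (SE 0.23, adjusted p = 6.91e-05), and in H358 it had 36.8, 35.4 and 41.3 CPM in shRAD21 libraries, against 37.5, 33.9 and 34.5 CPM in shNC libraries, with overlap. SAMD9, at 118, 120.2 and 127 CPM in shRAD21 libraries, against 119, 120.2 and 133 CPM in shNC libraries of H358, differed by -1.06 (SE 0.165, adjusted p = 0.000211). LGALS3BP, at 1134, 1072 and 1081 CPM in shRAD21 libraries, against 1063, 1022 and 987 CPM in shNC libraries of H358, differed by -0.59 (SE 0.09, adjusted p = 0.000183). In the opposite direction, OAS3 differed by 0.66 (SE 0.11, adjusted p = 0.00048), and in A549 it had 157, 148 and 190.0 CPM in shRAD21 libraries, against 156, 157 and 151 CPM in shNC libraries, with overlap. IFI27 differed by 2.19 (SE 0.44), IFI6 by 1.39 (SE 0.35), OAS1 by 0.49 (SE 0.11), IRF7 by 0.77 (SE 0.18) and ISG20 by 0.88 (SE 0.18). The difference of IRF7 was not called with a correction for GC content and length, where the adjusted p reached 0.267. For OAS2 the difference was 1.71 with an SE of 0.63 and was not called (adjusted p = 0.0723), with 20 counts in each A549 group. In both lines 4 members rose, MX1, HERC6, CMPK2 and USP18, which is 23.5% of the 17 and 28.6% of the 14. Over all genes tested the shared rises were 7.42% and 28.2%. No member was called in opposite directions in the 2 lines.

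Overexpression in A549 asked what happens when RAD21 is raised instead. With RAD21OE 27 members were lower and 3 were higher, 13 were not called, and 9 had too few counts to be tested. Among all 15462 genes tested 13.7% were lower and 14.1% were higher. The median log2 fold change was -0.73 over the 43 members tested, against -0.015 over all genes. It differed with the level. Over the 22 members with a mean of at least 10 CPM across both groups it was -0.29, and over the 19 from 1 to 10 CPM it was -1.22. Because 6 of the 43 passed the count filter through EV alone, they are set apart. Of the 37 members above the filter level (0.742 CPM) in both groups, 22 were lower and 3 were higher. Over all 13949 such genes 13.5% were lower and 15.1% were higher. The 6 were the sensors IFIH1, DHX58 and OAS2 and the effectors IFI27, MX1 and CMPK2, all but CMPK2 called lower. IFIH1, OAS2, IFI27 and MX1 are also among the 19 members from 1 to 10 CPM. No median was computed without the 6, so their part in the difference with level was not tested. By role, the 22 that were lower among these 37 were 6 of 8 sensors, 5 of 10 signalling factors and 11 of 19 effectors. Without RAD21OE replicate 3 the members lower numbered 27 and those higher numbered 2, or 61.4% and 4.55%, against 16.9% and 17.9% of all genes tested, with a median of -0.72 over 44 members. Those higher numbered 1 without RAD21OE replicate 2 or without any 1 of the EV libraries. Mitochondrial genes took 5.34 to 5.76% of the counts in RAD21OE, against 7.87 to 8.51% in EV, without overlap, and their part in these counts was not tested.

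Among the sensors in this experiment, IFIH1 had 1.13, 1.2 and 0.655 CPM in RAD21OE libraries, against 2.65, 4.32 and 2.86 CPM in EV libraries. The groups did not overlap, and RAD21OE replicate 3 was the lowest library (log2 fold change -1.71, SE 0.31, adjusted p = 0.00171). DDX58 had 9.32, 7.72 and 8.0 CPM in RAD21OE libraries, against 14.7, 17 and 12.9 CPM in EV libraries (log2 fold change -0.83, SE 0.15, adjusted p = 0.00143). IFI16 had 0.777, 1.95 and 1.24 CPM in RAD21OE libraries, against 4.79, 4.62 and 5.22 CPM in EV libraries (log2 fold change -1.89, SE 0.27, adjusted p = 0.000372). All RAD21OE values of both genes lay below the EV values. OAS2 had 0.283, 0.674 and 0.437 CPM in RAD21OE libraries, against 1.1, 2.5 and 2.57 CPM in EV libraries. OASL, a relative of these synthetases without that enzymatic activity, had 3.25, 3.52 and 3.71 CPM in RAD21OE libraries, against 11.5, 14.1 and 12.9 CPM in EV libraries. Both were lower with RAD21OE in every library, with a log2 fold change of -2.13 for OAS2 (SE 0.43, adjusted p = 0.00332) and -1.87 for OASL (SE 0.16, adjusted p = 5.81e-06). DDX60L, a helicase of the DDX60 family, had 23.2, 22 and 17.5 CPM in RAD21OE libraries, against 36, 42.3 and 36.9 CPM in EV libraries (log2 fold change -0.88, SE 0.13, adjusted p = 0.000335). EIF2AK2 had 137, 110.3 and 78.2 CPM in RAD21OE libraries, against 143, 153 and 153 CPM in EV libraries. Its RAD21OE libraries spread widely below the EV libraries (-0.46, SE 0.15, adjusted p = 0.0329), and the call was lost in 4 of 14 alternatives. Without RAD21OE replicate 3 the log2 fold change of EIF2AK2 was -0.27. OAS1 moved the other way and was higher, averaging 66.5 ± 7.39 CPM in RAD21OE and 46.3 ± 2.9 CPM in EV cells (0.52, SE 0.10, adjusted p = 0.00271).

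Signalling factors that fell with RAD21OE included the 3 genes of the locus on chromosome 3. DTX3L had 21.5, 24 and 19.3 CPM in RAD21OE libraries, against 33.6, 39.7 and 35.7 CPM in EV libraries. PARP9 had 11.7, 13 and 12 CPM in RAD21OE libraries, against 20.2, 27.5 and 24.4 CPM in EV libraries. PARP14 had 50.9, 53.3 and 45 CPM in RAD21OE libraries, against 69.5, 71.3 and 68.2 CPM in EV libraries. In all 3 the RAD21OE values lay below the EV values, with log2 fold changes of -0.75, -0.97 and -0.49 (SE 0.12, 0.14 and 0.09; adjusted p = 0.00065, 0.000268 and 0.00218). IRF7 had 4.38, 3.15 and 4.15 CPM in RAD21OE libraries, against 5.96, 8.34 and 9.55 CPM in EV libraries (log2 fold change -1.03, SE 0.21, adjusted p = 0.00316). STAT2, part of the ISRE-binding complex, averaged 31.4 ± 1.91 CPM in RAD21OE and 46.2 ± 5.11 CPM in EV cells (SD, n = 3 each), a log2 fold change of -0.56 (SE 0.11, adjusted p = 0.00258). USP18 was higher by 0.41, a call lost in 8 of 14 alternatives.

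Effectors that fell included MX1, SAMD9 and SAMD9L, of which MX1 was above the filter level in EV alone. MX1 had 0.424, 0.525 and 1.09 CPM in RAD21OE libraries, against 1.55, 3.49 and 3.23 CPM in EV libraries. SAMD9 had 7.21, 7.79 and 5.24 CPM in RAD21OE libraries, against 21.4, 21.1 and 18.8 CPM in EV libraries. SAMD9L had 2.33, 2.55 and 2.18 CPM in RAD21OE libraries, against 5.82, 6.37 and 8.74 CPM in EV libraries. No RAD21OE library reached an EV library in these genes, with log2 fold changes of -2.00, -1.60 and -1.56 (SE 0.41, 0.15 and 0.21). IFIT2, which binds viral RNA and impedes translation, had 3.74, 4.8 and 3.42 CPM in RAD21OE libraries, against 11.2, 11.8 and 9.77 CPM in EV libraries (log2 fold change -1.45, SE 0.17, adjusted p = 8.81e-05). Its relatives IFIT1 and IFIT3 fell by 1.21 and 1.09 on the log2 scale, while IFIT5 was at -0.06. IFI6 had 2.61, 4.2 and 3.93 CPM in RAD21OE libraries, against 7.44, 9.25 and 8.74 CPM in EV libraries (log2 fold change -1.24, SE 0.19, adjusted p = 0.000618). IFI27 had 0.565, 1.72 and 0.655 CPM in RAD21OE libraries, against 2.06, 2.2 and 2.28 CPM in EV libraries. RAD21OE replicate 2 of IFI27 stood near the EV libraries, and the call (-1.16, SE 0.37, adjusted p = 0.0338) was lost in 5 of 13 alternatives. LGALS3BP had 83.4, 98.4 and 107 CPM in RAD21OE libraries, against 154, 170.4 and 154 CPM in EV libraries (log2 fold change -0.73, SE 0.10, adjusted p = 0.000208). HERC6 had 11.5, 8.84 and 9.46 CPM in RAD21OE libraries, against 13.1, 17.4 and 16.2 CPM in EV libraries (log2 fold change -0.65, SE 0.15, adjusted p = 0.00762). Without EV replicate 2 HERC6 was not called (adjusted p = 0.0516). ISG15, at 3.68 ± 0.799 CPM in RAD21OE and 8.53 ± 1.04 CPM in EV cells, fell by 1.22 (SE 0.19, adjusted p = 0.000645). TRIM22, a restriction factor, fell by 1.35 and UBE2L6, the enzyme that carries ISG15, by 0.41, a call lost in 5 of 14 alternatives, where the adjusted p reached 0.158. IFITM2 was higher by 0.39, a call lost in 7 of 14, where it reached 0.175.

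The 9 effectors that were not tested had few counts in the overexpression table. MX2, XAF1 and EPSTI1 had 0 counts over 3 RAD21OE libraries, against 10, 8 and 5 counts over 3 EV libraries. With the RAD21OE group set to the floor of 3 counts and EV at its measured level, they were at least 3.4, 2.74 and 1.72-fold lower in RAD21OE. The counting error of these few EV counts is not covered. IFI44 had 10 counts with RAD21OE and 32 counts with EV. BST2, the tetherin that holds budding virions, had 4 counts with RAD21OE and 23 counts with EV.

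**Figure D4:**
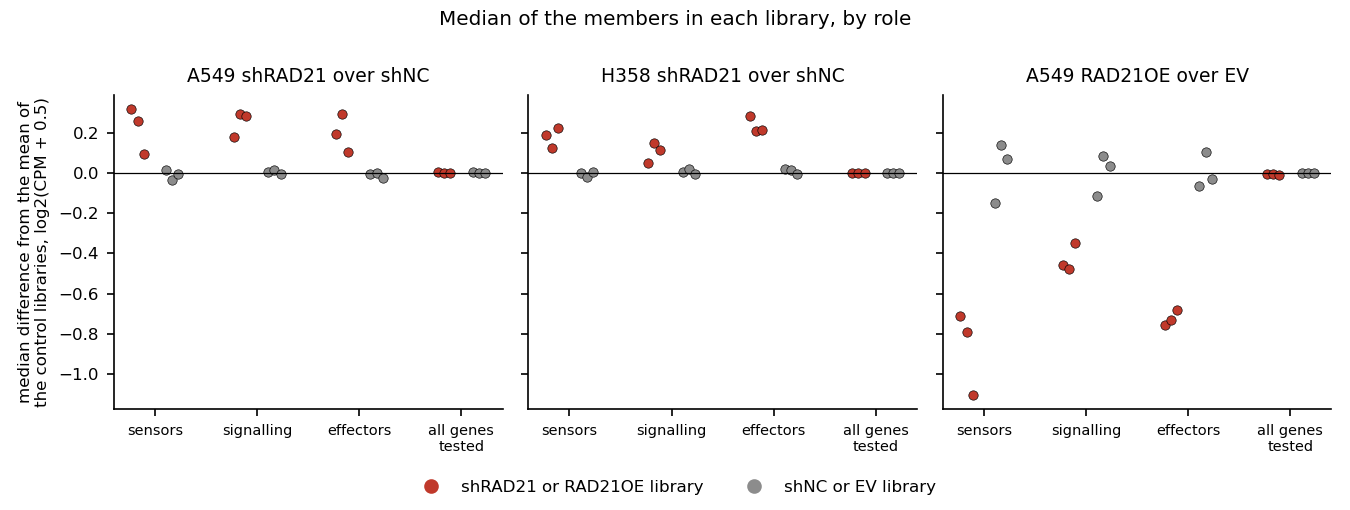
Median over the members of each role, and over all genes tested, of the difference in log2(CPM + 0.5) between a library and the mean of the 3 control libraries. Every shRAD21 library lies above every shNC library for each role in both lines, and every RAD21OE library lies below every EV library, while the medians of all genes tested lie at or near 0. The medians for RAD21OE and EV include the 6 members above the filter level in EV alone.

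Both A549 experiments have their own controls, so their calls can be set beside each other. Of the members called, 12 were higher with shRAD21 and lower with RAD21OE: IFIH1, DDX58, IFI16 and EIF2AK2 among sensors, DTX3L, PARP9 and PARP14 among signalling factors, and MX1, SAMD9, SAMD9L, HERC6 and LGALS3BP among effectors. Of these, IFIH1 and MX1 were above the filter level of the overexpression table in EV alone, and MX1 was above that of the knockdown table in A549 shRAD21 alone. Among genes above the level in both groups of both experiments, a restriction chosen after seeing the data, 10 members remained, which is 71.4% of 14 and 47.6% of 21, against 21.9% and 28.7% over all 13526 such genes. Without replicate 3 of shRAD21 and of RAD21OE 17 members were higher and lower in this way, and calls over all genes rose too. Genes higher with shRAD21 went from 2721 of 18939 to 4537 of 19584. Those lower with RAD21OE went from 2120 of 15462 to 2688 of 15909. The shared number over all genes was not computed without these libraries. IFIH1, MX1 and CMPK2, among the 17, were above the overexpression filter level in EV alone. USP18 and IFITM2 were called higher in both experiments, and with RAD21OE these calls were lost in 8 and 7 of 14 alternatives. The H358 knockdown and the overexpression in A549 shared 6 members that were higher and lower, HERC6, IFI27, IFI6, IRF7, MX1 and OAS2. IFI27, MX1 and OAS2 were above the filter level of the overexpression table in EV alone, and the other 3 are 50% of 6 and 13.6% of 22 among members above the level in both groups of both comparisons. Over all such genes those shares were 14.3% and 5.11%.

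**Figure D5:**
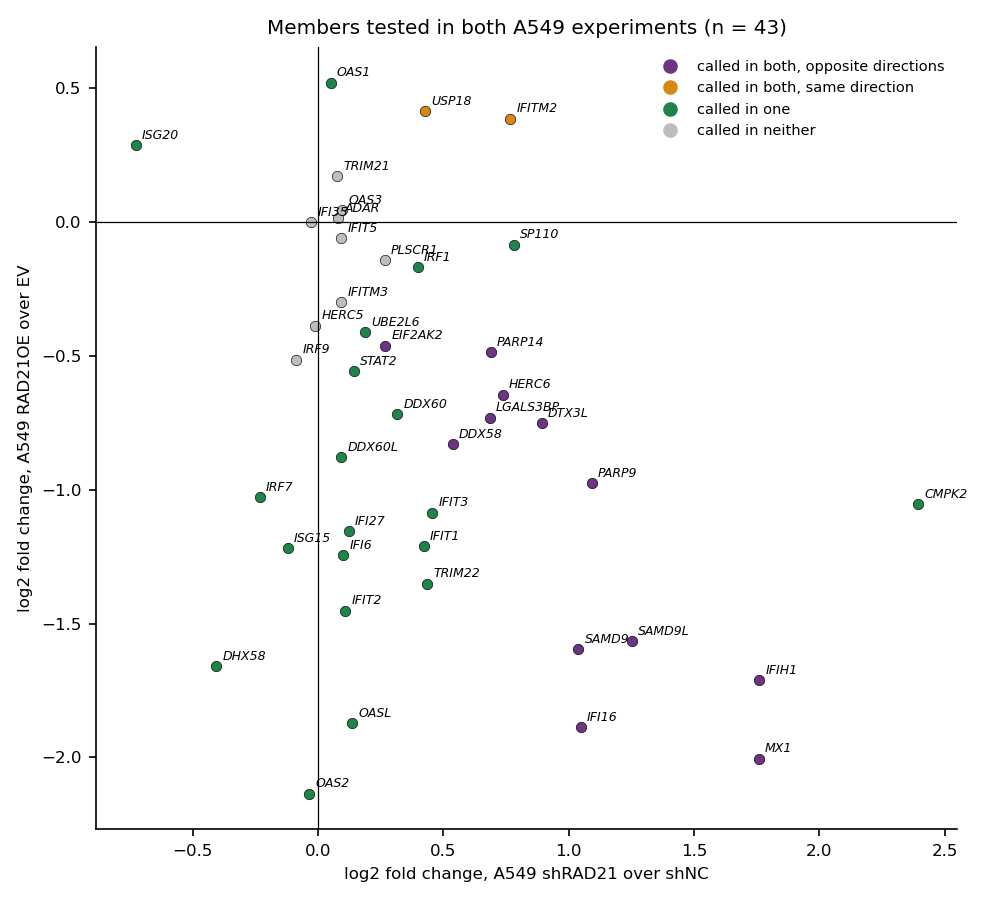
Log2 fold change of A549 shRAD21 over shNC (horizontal) and of RAD21OE over EV (vertical) for the 43 members tested in both tables. The 12 members called in opposite directions fill the lower right, USP18 and IFITM2 lie at the upper right, and OAS2, OASL and IFIT2 lie low with a knockdown change near 0. In the knockdown OAS2 had only 20 counts in each A549 group, and OASL had 34 counts in shRAD21 and 30 in shNC. Neither reached the filter level in all libraries of either A549 group, so their knockdown changes are uncertain.

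The ISRE core was in 27 of the 43 promoter windows (62.8%). In A549 shRAD21 it was in 7 of 15 windows of members higher and 19 of 27 of those not called. In H358 shRAD21 it was in 6 of 10 windows of members higher and 21 of 33 of those not called. In RAD21OE it was in 14 of 21 windows of members lower and 7 of 13 of those not called. The 14 include IFIH1, IFI27 and MX1, which were above the filter level in EV alone. The median log2 fold change of members with and without the core was 0.27 and 0.29 in A549 shRAD21, 0.23 and 0.16 in H358 shRAD21, and -0.73 and -0.54 in RAD21OE. No test was made of these counts. GC content moved with the comparisons. Spearman's rho across all genes tested, which are not independent replicates, between GC content and log2 fold change was -0.326 in A549 shRAD21, 0.183 in H358 shRAD21 and 0.316 in RAD21OE. The median GC content was 44.1% for the members higher in A549 shRAD21 and 44.2% for those lower in RAD21OE, against 48.4% and 48.7% for all genes tested, and 50.1% for those higher in H358 shRAD21. With a correction for GC content and length, 18 members were higher in A549 shRAD21 and 29 were lower in RAD21OE, or 34.6% and 67.4%, against 17.1% and 17.7% of all genes tested.

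The lines differ in their basal level of these genes. In shNC cells 41 members were higher in H358 than in A549 and 5 were lower, against 39.1% of genes higher and 36.8% lower, with a median log2 fold change of 3.05 (3.00 with MX2 and XAF1 at their bounds) against 0.048 over all genes. ISG15 was at 136 ± 3.56 CPM in H358 and 3.31 ± 0.707 CPM in A549 (SD, n = 3 each). BST2 was at 96.4 ± 6.65 CPM in H358 and 0.0886 ± 0.0395 CPM in A549. IFI44 had 3052 counts in H358 and 2 counts in A549 over 3 libraries each. IFI16, IFITM3, HERC5, LGALS3BP and IFI44L were higher in H358 by 5.96, 5.62, 3.44, 3.66 and 8.72 on the log2 scale, and none of their libraries overlapped between the lines. Every H358 library was above every A549 library in 42 members and below in 6, against 41.9% and 39.1% of all genes tested. MX2 had 0 counts in A549 shNC and was at least 178-fold higher in H358 shNC. The 5 that were lower in H358 were OAS1, OAS3, TRIM21, IFI35 and IFIT5, by 0.63 to 1.26.

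Genes of the same pathway outside the 52 were followed from a list of which 64 were found. Of 10 interferon ligands, IFNE alone reached a mean of 1 CPM in any group. IFNE averaged 1.06 ± 0.190 CPM in RAD21OE and 3.08 ± 0.587 CPM in EV cells (SD, n = 3 each), and fell (log2 fold change -1.52, SE 0.28, adjusted p = 0.00178), while in A549 shRAD21 it was at 2.37 ± 0.641 CPM, against 2.02 ± 0.522 CPM in shNC. Of 9 receptors and receptor kinases 0 were higher and 1 was lower in A549 shRAD21 (JAK1, at -0.38), 0 were called in H358 shRAD21, and with RAD21OE 1 was higher and 2 were lower. These and the counts that follow stand against 14.4% of all genes tested higher and 10.9% lower in A549 shRAD21, 3.78% and 4.62% in H358 shRAD21, and 14.1% and 13.7% in RAD21OE. Of 12 tested genes listed for the route from nucleic acid sensing to interferon, whether they drive or restrain it, 3 were higher and 4 were lower in A549 shRAD21. Among the 4, TRAF3 and TICAM1, adaptors of that route, fell by 0.44 and 0.67. In H358 shRAD21 SAMHD1 (0.50), which restrains that route, and TRAF3 (0.32) were higher and 0 of the 12 were lower. SOCS3, an inhibitor of JAK kinases, fell by 1.52 in A549 shRAD21, where it averaged 14.1 ± 2.99 CPM, against 40.3 ± 2.52 CPM in shNC (SD, n = 3 each). It also fell by 0.53 in H358 shRAD21, and was higher by 0.46 with RAD21OE.

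A further 28 interferon-inducible genes were listed. In A549 shRAD21 13 of the 25 tested were higher and 2 were lower, led by APOL1, a trypanolytic lipoprotein (2.09, adjusted p = 2.37e-10), GBP3, a guanylate-binding protein (2.98, adjusted p = 1.4e-08), and TRIM14, a mitochondrial adaptor (0.73, adjusted p = 9.06e-07). In H358 shRAD21 3 were higher and 3 were lower, with TRIM14 at 0.32, and GBP2, APOL6 and CD274, the ligand of PD-1, at -0.63, -0.40 and -0.47. With RAD21OE 1 of 23 was higher (TRIM26, at 0.34) and 7 were lower, led by APOL1 (-1.0), CD274 (-1.89) and PARP10 (-1.04). Across the 3 comparisons these shares were 52% higher in A549 shRAD21, 12% in H358 shRAD21 and 4.35% in RAD21OE, to be read against 14.4%, 3.78% and 14.1% of all genes tested. The shares lower were 12% in H358 shRAD21 and 30.4% in RAD21OE, against 4.62% and 13.7% of all genes tested.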

How the data were processed

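RNA sequencing was deposited for 18 libraries in 2 tables of raw read counts per gene, one for the knockdowns and one for the overexpression. The authors' processing is known from the submitters' processing notes, which list hg38, featureCounts 1.5.0-p3, HISAT2 2.0.5 and fastp with no order, and the deposited values were used as counts. The labels do not state whether counting used strand. The tables come from separate experiments, so levels are not compared between them. Gene models were those of GENCODE release 29, whose coordinates matched all 58735 genes.

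Members and lists were chosen with earlier results of these data known. Counts were scaled by TMM, filtered with filterByExpr and tested with edgeR 4.0.16's quasi-likelihood test (two-sided) in R 4.3.3, with 1 fit per table and Benjamini-Hochberg adjustment over all genes tested, and the scripts were tested on simulated data. Alternatives were DESeq2 size factors, no filter, at least 10 CPM in 3 libraries, the DESeq2 1.42.0 Wald test, limma-voom (limma 3.58.1), a replicate block, a correction for GC content and length, a fit of 1 line alone, and each library left out, and, chosen after seeing the data, overlaps over genes above the filter level in both groups or without replicate 3 of A549 shRAD21 and of RAD21OE. Figures used Python 3.11.15 and matplotlib 3.10.9. Where a group had 0 counts, folds are bounds computed with that group set to a floor of 3 counts. The floor covers the counting error of that group only. Values per library are given for up to 8 members with the smallest adjusted p in each comparison, for members called in opposite directions, and for up to 6 members that differed between the lines, and others were added where a result needed them. From the pathway list, up to 3 genes called in each direction were named by adjusted p, with a few more added after their values were seen.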

Additional observations from a re-analysis of the deposited data

Results flagged for a closer look

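The effect of shRAD21 differed between the lines, by a test of the difference itself (H358 minus A549, edgeR), in 17 members. The difference in log2 fold change was negative for DTX3L (-0.90), IFIH1 (-1.66), LGALS3BP (-0.59), PARP9 (-0.96), SAMD9 (-1.06), SAMD9L (-1.33), PARP14 (-0.69), IFITM2 (-0.85), CMPK2 (-1.57), IFI16 (-0.98) and IRF1 (-0.43). It was positive for OAS3 (0.66), IFI27 (2.19), ISG20 (0.88), OAS1 (0.49), IRF7 (0.77) and IFI6 (1.39). Of 20 alternatives, the call was lost in 10 for IRF1, 6 for IFI16, 2 for IRF7, 2 for CMPK2 (without A549 shNC replicate 1 or 2) and 1 for IFI6 (without A549 shNC replicate 2). CMPK2 was higher in shRAD21 in both lines, by 0.83 in H358 and 2.39 in A549.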

How the results depend on the processing

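No scaling moved the median of all genes tested by more than 0.1 (log2). The number of members higher in H358 shRAD21, 14 as reported, was 23 with a correction for GC content and length, 23 with that correction and the replicate block, and 26 in a fit of the 6 H358 libraries alone. It was 9 to 10 with 1 library left out, and 9 without shRAD21 replicate 1, shNC replicate 2 or shNC replicate 3. Over all genes 716 of 18939 were higher as reported. In these settings 1651 of 18939, 1468 of 18939 and 2186 of 17215 were, and 347 of 19534 to 386 of 19513 with 1 library left out. With RAD21OE, keeping genes with 10 CPM or more in 3 libraries left 23 members, of which 1 was higher and 12 were lower. Of the 9901 genes it left, 1579 were higher and 1563 were lower. With 1 library left out, 1 to 3 members were higher, with 1 higher without RAD21OE replicate 2 or any EV library, and 21 to 27 were lower. Over all genes 1112 of 15851 to 2848 of 15909 were then higher, and 1065 to 2688 of the same totals lower. In A549 shRAD21 14 to 23 members were higher with 1 library left out, and over all genes 2003 of 19583 to 4537 of 19584. The members that differed between the lines numbered 6 to 8 upward and 8 to 14 downward. Over all genes 932 of 19574 to 3507 of 19584 differed upward, and 1246 of 19528 to 3841 of 19584 downward. The cause of these shifts was not tested. A filter or an omission also leaves fewer genes or libraries, and the part of that was not tested. With the replicate block the members higher and lower were 16 and 1 in A549 shRAD21, 12 and 0 in H358 shRAD21, 2 and 27 in RAD21OE, 6 and 11 for the difference between the lines, and 42 and 6 between the control lines. Over all genes (15462 in RAD21OE and 18939 in the others) these were 2378 and 1866, 455 and 583, 2171 and 2216, 1190 and 1471, and 6402 and 6025. Libraries with the same number correlated between -0.0369 and 0.0674 in their deviations from the group means, against -0.0514 to 0.0338 for libraries with different numbers. With 3 libraries per group such small values cannot decide whether libraries of the same number were paired. Over the 125 calls of members in the 5 comparisons, 1756 of 1863 values under alternatives kept direction and call, 107 lost the call and 0 changed sign, and 22 of the 125 calls were lost at least once. Among genes above the level of the count filter in both groups of both comparisons, 3 members instead of 6 were higher in H358 shRAD21 and lower in RAD21OE. Depth limits the members with few counts, 9 of which were not tested in the overexpression table.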
